A study of Mus musculus with 12 samples.

Results

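The comparison described here set 3 mice killed at postnatal day 38 (P38) against 3 mice killed at P32, all of them Crx-CreERT2;Otx2 flox/flox mice given tamoxifen at P30, so that it followed the knockout retina from 2 to 8 d after induction with no control mice in the contrast. The 6 libraries were chosen by their age labels, P32 mice 4, 5 and 6 and P38 mice 10, 11 and 12, out of 12 libraries in the series, in which the other 6 came from P30 and P34 mice. Each library held RNA of the retina of 1 mouse, and the study states that RNA of the retinal pigment epithelium (RPE) was included. The animals were of the 129/SV strain, were kept in 12/12 h light/dark and were killed at 3 P.M. The inducible recombinase, a fusion of Cre and a modified estrogen receptor, was expressed from the Crx promoter, which is active in photoreceptors, and tamoxifen was given as a single intraperitoneal injection. All 6 mice carried the floxed alleles and the transgene and had received the drug. They differed in age as well as in time since tamoxifen, and these cannot be told apart.

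OTX2 is a homeodomain transcription factor of photoreceptors, bipolar cells and RPE that binds TAATCC-like sites, as does its relative CRX, and it acts on genes of phototransduction. In rods, the light-activated visual pigment switches on transducin and phosphodiesterase, cyclic GMP falls and the cyclic nucleotide-gated channel closes. Guanylate cyclase and the RGS9 complex return the cell to its dark state. The exonic length and the GC content of a transcript can affect its share of a library, because RNA integrity, selection on poly(A) and amplification act unequally on transcripts of unequal length and composition. For this reason both properties were followed through every comparison.

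The libraries held 29947009 to 45797527 counts assigned to genes, and 3 counts stood at 0.0704 to 0.102 CPM (counts scaled to a common library size). P32 mouse 4 lay apart from the other libraries on the first principal component, which took 49.3% of the variance among the 6 libraries. P38 mouse 10 lay at the end of the second, which took 22.4%. Reads that could not be placed uniquely came to 32.15% of the reads given to the counter in P32 mouse 4 and 28.53% in P38 mouse 10, against 23.7 to 26.4% in the other 4. By Xist and 4 Y-linked genes, mice 4, 10 and 11 were male and mice 5, 6 and 12 female, so sex was not balanced between the ages. Retinal markers were counted in all 6 libraries, as were markers of lens. The 18 lens genes summed to 65150, 47090 and 1110 CPM in P32 mice 4, 5 and 6 and 18460, 7446 and 8026 CPM in the P38 mice, and 7 blood genes summed to 283 CPM in P32 mouse 4 and 117 to 147 CPM in the other 5. Otx2 (ENSMUSG00000021848, chromosome 14 of GRCm38 from 48657677 to 48673819) was counted at 322, 340.3 and 372 CPM in P32 mice 4, 5 and 6 and 377, 307 and 372 CPM in P38 mice 10, 11 and 12. The ages overlapped, and the log2 fold change was 0.03 ± 0.11 (SE), with an adjusted p of 0.887 in edgeR's quasi-likelihood test. The deletion removes part of the gene, and counts over the whole gene do not separate the deleted from the intact allele.

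No single gene passed both limits, an adjusted p of 0.05 and 0.5 on the log2 scale, in edgeR's quasi-likelihood test of P38 against P32, in which 18628 genes were tested and the smallest adjusted p was 0.108. At an unadjusted p of 0.05 and the same fold, 1059 genes (5.68% of those tested) were higher at P38 and 1161 (6.23%) were lower. The values of the 3 P38 mice all lay above those of the 3 P32 mice in 2470 genes (13.3%) and all below in 2451 (13.2%), 26.4% in all. DESeq2 on the same counts called 929 genes at its adjusted p, 522 higher and 407 lower. Single P32 libraries moved these counts: without P32 mouse 6 edgeR called 1968 genes, 1253 of them higher, whereas without P32 mouse 4 it called 1, Lrrc66 (chosen after its values were seen), with 1.59, 6.51 and 6.38 CPM at P32 and 2.67, 2.13 and 2.41 CPM at P38, and the genes at the unadjusted limit came to 1026. With sex as a covariate edgeR called 0, and 3009 were at the unadjusted limit, 8.47% of all genes higher and 7.69% lower. The members of the gene groups described below are therefore counted at this unadjusted limit, and each such count is to be read against the share of all genes in the same fit. This was 5.68% higher and 6.23% lower with all mice, and 4.14% and 4.62% with the offsets introduced below. When mice 4, 5, 6, 10, 11 and 12 were left out in turn, 2.57, 5.93, 11, 6.22, 4.05 and 5.64% of all genes were higher and 2.94, 6.71, 10.2, 5.26, 4.72 and 6.26% lower. Counts and medians of a group with each mouse left out are given in the same order of mice, and the counts are to be read against these shares. Each count of separate ages is to be read against 13.3% above and 13.2% below. In bulk tissue, fewer cells of a type and less RNA per cell cannot be told apart.

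The median fold change increased with transcript length. When the genes were put in quintiles (5 groups of equal number) by exonic length, the median log2 fold change went from -0.26 in the shortest quintile (median 1201 bases) through -0.18, -0.07 and 0.07 to 0.23 in the longest (median 9237 bases). In the longest quintile 508 genes (13.6%) were higher at the unadjusted limit and 20 (0.537%) lower, and in the shortest quintile 137 (3.68%) were higher and 522 (14.02%) lower. GC content showed a shallower course. The median log2 fold change was -0.14 in the quintile with the highest GC (median 57.2%) and 0.10 in the quintile with the lowest (median 40.8%). Within the longest quintile the median stayed between 0.22 and 0.24 over all 5 GC quintiles, and within the shortest it went from -0.18 at the lowest GC to -0.30 at the highest.

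**Figure D1:**
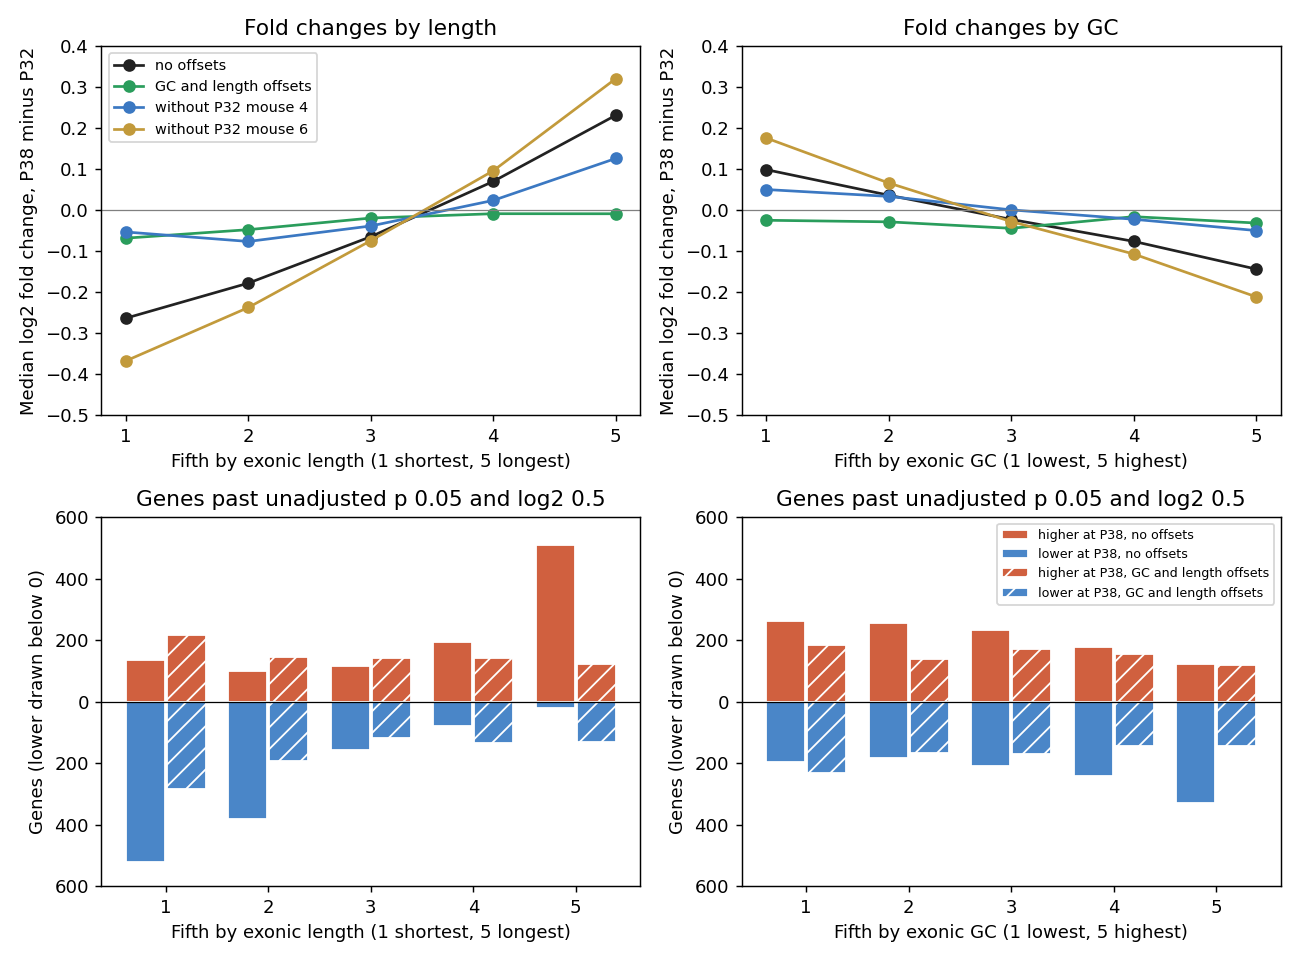
Top, median log2 fold change of P38 over P32 (y axis) in quintiles of the tested genes by exonic length and by exonic GC content (x axis). Lines show the fit without offsets, the fit with GC and length offsets, and the fits without P32 mouse 4 and without P32 mouse 6. Bottom, genes at the unadjusted limit in each quintile, without and with the offsets. By length the medians run from -0.26 to 0.23 without offsets and from -0.07 to -0.01 with them. They lie between -0.08 and 0.13 without P32 mouse 4 and between -0.37 and 0.32 without P32 mouse 6.

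The gradient was carried unequally by the 6 libraries. The difference between the longest and the shortest quintile, in median log2 CPM relative to the mean of the 6 mice, was -0.803 in P32 mouse 4, -0.069 in mouse 5 and 0.114 in mouse 6. It was 0.086, 0.378 and 0.222 in P38 mice 10, 11 and 12. P32 mouse 4 was far below the rest, and the values of P32 mouse 6 and P38 mouse 10 overlapped. The ages differed by 0.48 on this scale, with a two-sided exact permutation p of 0.2, where 3 against 3 mice cannot go below 0.1. Without P32 mouse 4 the difference was 0.191, and without P32 mouse 6 it was 0.664. For GC, the highest quintile minus the lowest stood at 0.360, 0.140 and -0.140 at P32 and at -0.115, -0.083 and -0.129 at P38, a difference of -0.23 with an exact permutation p of 0.4. Without P32 mouse 4 it was -0.0982, and without P32 mouse 6 it was -0.364.

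**Figure D2:**
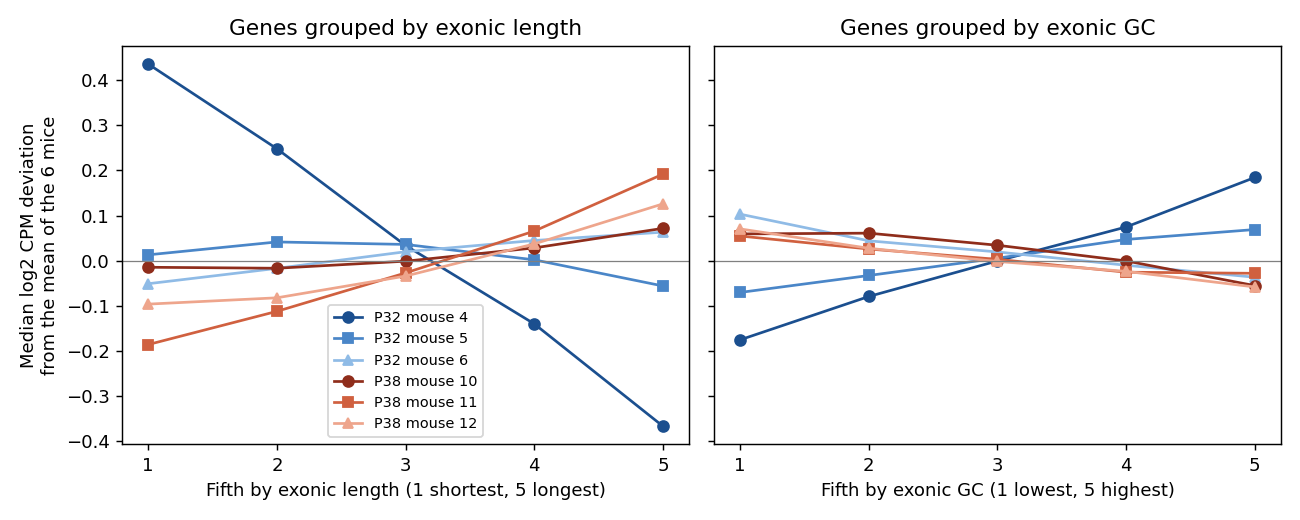
Median log2 CPM of each quintile of genes relative to the mean of the 6 mice (y axis) by quintile of exonic length and of exonic GC (x axis), 1 line per library. The line of P32 mouse 4 falls with length, with a longest minus shortest difference of -0.803, and the other 5 libraries lie between -0.069 and 0.378 on the same difference.

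A spline on exonic GC and length together accounted for 9.79% of the variance of the log2 fold changes over 18614 genes. Length alone gave 9.54% and GC alone 1.59%. Among the 10360 genes with a mean of at least 10 CPM, where counting error is smaller, the share was 29.6%, and among the 2146 genes with at least 100 CPM it was 31.1%. Below 1 CPM it was 1.30%. Without P32 mouse 4 the 3 shares for all genes, for at least 10 CPM and for at least 100 CPM came to 3.33, 8.26 and 14.3%. These are descriptions over genes, which share the same 6 libraries and are not independent replicates.

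With offsets for GC and length estimated in each library, the medians of the length quintiles lay between -0.07 and -0.01. The genes at the unadjusted limit numbered 772 higher (4.14%) and 860 lower (4.62%), 8.76% in all, and 1295 genes were at the limit in both fits, 58.3% of those without offsets and 79.4% of those with them. In the longest quintile 122 were then higher and 132 lower, and in the shortest 218 and 284. A single gene passed the adjusted threshold, Frat2 (0.00537% of those tested), described after the immediate early genes. The offsets remove any difference that goes with length or GC, whether it arose in the library or in the retina, and these cannot be told apart from the counts. Hereafter each gene has its fold change without offsets first, and the value with both offsets is named as such.

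Several rod phototransduction genes stood higher at P38. Of the 20 genes tested, 7 were higher at the unadjusted limit and 0 lower, where 5.68 and 6.23% of all genes were, and 10 had all P38 values above all P32 values, as 13.3% of all genes had. The median log2 fold change was 0.40, against -0.02 for all genes tested, and 0.32 with the offsets, under which 6 members were higher.

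Gnat1 (ENSMUSG00000034837, chromosome 9 of GRCm38 from 107674474 to 107679712), the alpha subunit of rod transducin, stood at 10630, 11230 and 12490 CPM in P32 mice 4, 5 and 6 and 19550, 12950 and 15130 CPM in P38 mice 10, 11 and 12. The ages did not overlap, mouse 10 was highest, and the log2 fold change was 0.47 ± 0.18 (SE), with an adjusted p of 0.165 in edgeR's test, 0.59 with the offsets and 0.29 without mouse 10. Pde6a, a catalytic subunit of the rod phosphodiesterase, had 1362, 1973 and 2429 CPM at P32 and 4296, 2975 and 3216 CPM at P38, again without overlap and with mouse 10 highest. Its log2 fold change was 0.86 ± 0.21 (SE), with an unadjusted p of 0.00148, an adjusted p of 0.114 in edgeR and 0.84 with the offsets. Cngb1, a subunit of the cyclic nucleotide-gated channel, was counted at 833, 864 and 979.8 CPM at P32 and 1555, 1221 and 1258 CPM at P38 (0.59 on the log2 scale). Slc24a1, the exchanger that removes calcium from the outer segment, had 934, 1351 and 1583 CPM at P32 and 2640, 1922 and 2073 CPM at P38 (0.78). Gucy2e, which codes for a guanylate cyclase that restores cyclic GMP, was counted at 430.5, 541 and 643 CPM at P32 and 935, 820.5 and 854 CPM at P38. None of these 3 overlapped between ages, and Gucy2e had a log2 fold change of 0.69 ± 0.15 (SE), and 0.50 with the offsets.

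Rgs9, the GTPase-activating protein that ends the transducin signal, differed most in this group. It was counted at 21, 94.1 and 172 CPM in P32 mice 4, 5 and 6 and 329.8, 358 and 368 CPM in P38 mice 10, 11 and 12. The P38 mice lay close together, the P32 mice were spread over a wide range with mouse 4 lowest, and the P30 mice had 108 to 279 CPM. The log2 fold change was 1.88 ± 0.55 (SE) (adjusted p 0.118 in edgeR), and 1.40 without mouse 4. The ages overlapped in the other 10 members. Among them Sag, rod arrestin, had a log2 fold change of 0.32, and 0.05 with the offsets. Gngt1, the gamma subunit of rod transducin, had -0.33, the lowest of the group, and -0.01 without mouse 4 (Gngt1 was chosen after its values were seen). Over the 20 genes, mouse 10 had the highest value in 16 and mouse 4 the lowest in 11. The median was 0.27 when mouse 10 was left out, and up to 0.53 when another mouse was. The higher members numbered 8, 7, 11, 5, 10 and 9 without each of the 6 mice in turn, and without mouse 6 edgeR called 8 at its adjusted p. DESeq2 called 6 with all mice.

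Among genes that build the outer segment and its surroundings 17 of 19 had a positive log2 fold change. Of 19 tested, 8 were higher and 0 lower at the unadjusted limit (5.68 and 6.23% of all genes), 9 had P38 above P32 without overlap and 2 had P38 below (13.3 and 13.2% of all genes), and the median was 0.38, and 0.42 with the offsets. Rbp3, the interphotoreceptor retinoid-binding protein, stood at 3235, 4750 and 5551 CPM at P32 and 10420, 7096 and 8728 CPM at P38. No P38 value reached down to the P32 range. Its log2 fold change was 0.96 ± 0.23 (SE), with an adjusted p of 0.114 in edgeR, and 0.95 with the offsets. Cdhr1, a cadherin of the base of the outer segment, had 1091, 1319 and 1591 CPM at P32 and 2656, 1880 and 2052 CPM at P38 and a log2 fold change of 0.72, without overlap. Impg2, a matrix proteoglycan around the outer segments, was higher by 0.78, and by 0.55 with the offsets. Abca4, the retinoid transporter of the disc rim, was higher by 0.74, and by 0.47 with the offsets. Impg1, the partner of Impg2 in that matrix, was chosen after its values were seen and stood at 150.3, 294 and 380.0 CPM at P32 and 749.7, 513 and 546 CPM at P38, a log2 fold change of 1.13. Rom1, a disc rim protein with a short transcript, was counted at 3415, 2466 and 2473 CPM at P32 and 3865, 2560 and 2924 CPM at P38, with overlap and a log2 fold change of 0.16, and 0.38 with the offsets. As in the rod genes, mouse 10 was highest in most members (15 of 19) and mouse 4 lowest in 12. The median was 0.29 without mouse 10 and up to 0.58, without mouse 6. The higher members numbered 7, 8, 10, 7, 8 and 9 without each of the 6 mice in turn. Without mouse 6 edgeR called 8 at its adjusted p, and DESeq2 called 8 with all mice. What part mice 10 and 4 had in the differences was not tested beyond leaving each out.

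The sequence before the start of Gucy2e and of Rbp3 is shown because both genes were higher at P38 and hold the letters TAATCC, the core that OTX2 and CRX bind. The 250 bases before the annotated start were read on the strand of the gene from RefSeq (GRCm38.p6), 5′ to 3′, with TAATCC or its reverse complement GGATTA in capitals.
Gucy2e (chr11:69237023-69237272, minus strand): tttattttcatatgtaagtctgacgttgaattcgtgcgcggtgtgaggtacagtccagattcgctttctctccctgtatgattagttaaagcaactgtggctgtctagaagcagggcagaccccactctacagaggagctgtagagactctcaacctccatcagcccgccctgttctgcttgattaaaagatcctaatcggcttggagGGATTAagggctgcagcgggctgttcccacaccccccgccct
Rbp3 (chr14:33953753-33954002, plus strand): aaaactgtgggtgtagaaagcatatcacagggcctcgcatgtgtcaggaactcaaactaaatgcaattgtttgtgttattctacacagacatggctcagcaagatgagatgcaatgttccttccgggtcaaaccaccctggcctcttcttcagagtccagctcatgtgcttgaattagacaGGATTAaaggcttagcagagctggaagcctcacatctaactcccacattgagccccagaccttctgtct
Each of these windows had 1 match. Over 27025 genes with a promoter in the RefSeq table, 7.21% had TAATCC on either strand in this window. Among the rod phototransduction genes 13 of 20 had an entry and 7 of those (53.8%) had a match, and among the outer segment genes 5 of 15 (33.3%) had one. A match is a string of letters and not a shown binding site.

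**Figure D3:**
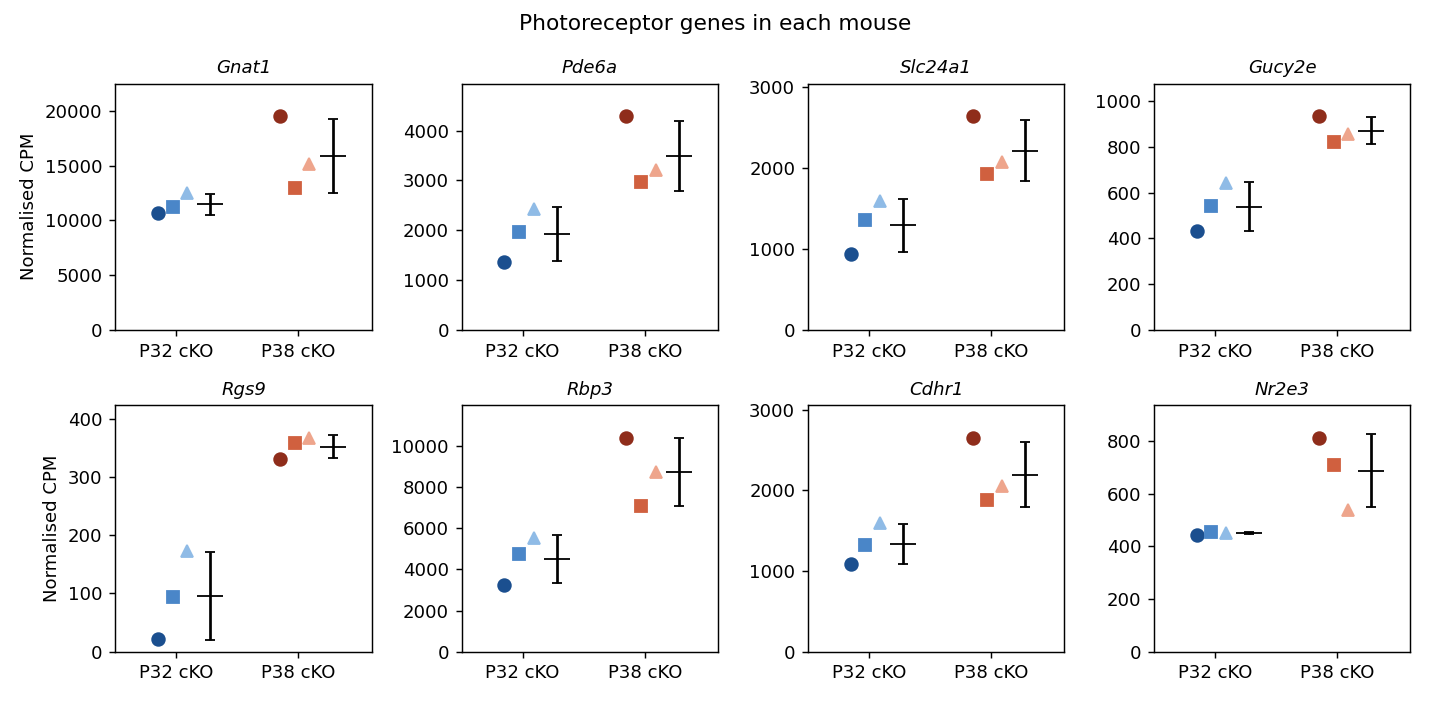
CPM of 8 photoreceptor genes (y axis, 1 panel per gene) in the 3 P32 and 3 P38 mice (x axis, 1 point per mouse, marker shape by mouse), with mean ± SD in black. In Gnat1, Pde6a, Slc24a1, Gucy2e, Rgs9, Rbp3, Cdhr1 and Nr2e3 each P38 point lies above each P32 point, and P38 mouse 10 is the highest point in all but Rgs9.

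Of 15 photoreceptor transcription factors 14 had a positive log2 fold change, and 3 were higher and 0 lower at the unadjusted limit, with a median log2 fold change of 0.13, and 0.19 with the offsets. Nr2e3, which represses cone genes in rods, was counted at 445, 453 and 449.5 CPM at P32 and 814, 709.7 and 538 CPM at P38. Its P32 values lay within a few CPM of each other and all P38 values above them, at a log2 fold change of 0.61 ± 0.16 (SE). Mef2c, a MADS-box factor, was higher by 0.67, and by 0.31 with the offsets. Crx itself stood at 1081, 1154 and 1251 CPM at P32 and 1457, 1061 and 1255 CPM at P38, a log2 fold change of 0.11, and Nrl, the rod-determining factor and also chosen after its values were seen, at 2393, 1814 and 1885 CPM at P32 and 2728, 1895 and 2035 CPM at P38, a log2 fold change of 0.13. Of the 15, 3, 2, 3, 1, 2 and 2 were higher without each of the 6 mice in turn, and the median ran from 0.06 without mouse 10 to 0.28 without mouse 6.

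Cone genes went in both directions. Of 12 tested, 2 were higher and 1 lower at the unadjusted limit, and the median was 0.00, and 0.14, -0.05, 0.02, -0.06, 0.18 and -0.12 without each of the 6 mice in turn. Opn1sw, the short-wave cone opsin, had 417, 469 and 465 CPM at P32 and 834, 600.4 and 628 CPM at P38, all P38 values above those at P32, with a log2 fold change of 0.61 ± 0.16 (SE). Arr3, cone arrestin, had 323, 300.5 and 316 CPM at P32 and 177, 174 and 285 CPM at P38, with a log2 fold change of -0.57, and -0.46 with the offsets.

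Immediate early genes are induced within minutes of a stimulus without new protein, and 4 of them, Fos, Egr1, Nr4a1 and Dusp1, were lower at P38. Of 15 tested, 0 were higher and 4 lower at the unadjusted limit, 5 had all P38 values below all P32 values (13.2% of all genes did), and the median log2 fold change was -0.31, and -0.23 with the offsets. Fos (ENSMUSG00000021250, chromosome 12 of GRCm38 from 85473890 to 85477273), a subunit of AP-1, was counted at 40.8, 51.7 and 52.5 CPM in P32 mice 4, 5 and 6 and 23.9, 14.4 and 11.5 CPM in P38 mice 10, 11 and 12. The highest P38 value was below the lowest P32 value, and the P30 mice had 18.1 to 32.7 CPM. Its log2 fold change was -1.54 ± 0.30 (SE), with an unadjusted p of 2.31e-04 and an adjusted p of 0.114 in edgeR, and -1.41 with the offsets.

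Egr1, a zinc finger factor, stood at 86.8, 94.7 and 105 CPM at P32 and 40.5, 22.8 and 16.9 CPM at P38, with a log2 fold change of -1.83 ± 0.56 (SE). Nr4a1, an orphan nuclear receptor, stood at 41.5, 49.8 and 57.7 CPM at P32 and 19.6, 21.04 and 21.4 CPM at P38, with -1.26 ± 0.19 (SE). Dusp1, a phosphatase of MAP kinases, stood at 31.6, 29.9 and 29.99 CPM at P32 and 17.4, 9.92 and 10.96 CPM at P38, with -1.25 ± 0.21 (SE). In each of them all P38 mice lay below the 3 P32 mice, and the adjusted p in edgeR was 0.123, 0.114 and 0.114, respectively. Of the 15 members 14 had a negative log2 fold change (11 with the offsets), and 4 of them were at the limit. Fosb had a log2 fold change of -0.13 with 1.08, 2.92 and 2.07 CPM at P32 and 1.72, 2.25 and 1.56 CPM at P38, and Jun, chosen after its values were seen, had 0.05 with 30.8, 25.5 and 30.7 CPM at P32 and 35.03, 27.8 and 26.9 CPM at P38. All 6 mice were killed at the same hour, and the minutes from death to lysis are not given in the sources used here. Leaving out 1 mouse at a time kept the median of the group between -0.39 and -0.27.

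**Figure D4:**
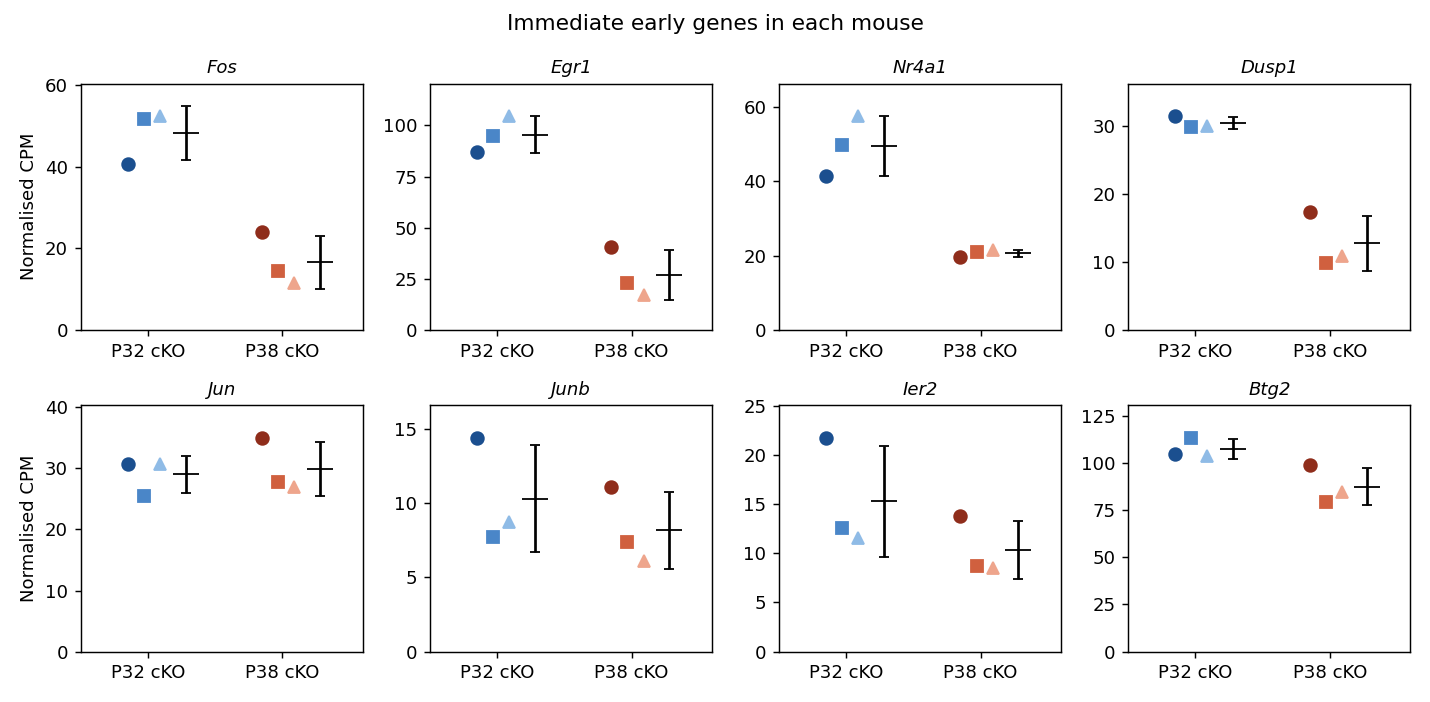
CPM of 8 immediate early genes (y axis, 1 panel per gene) in the 3 P32 and 3 P38 mice (x axis, 1 point per mouse), with mean ± SD in black. Fos, Egr1, Nr4a1 and Dusp1 have every P38 point below every P32 point, whereas Jun had a log2 fold change of 0.05.

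The promoters of Fos, Nr4a1 and Dusp1 are shown because these genes were lower at P38 and are known targets of CREB, which binds the cyclic AMP response element TGACGTCA or its part TGACG. The CArG box, the site of serum response factor, was searched as well. The windows are the 250 bases before the annotated start from RefSeq (GRCm38.p6), on the strand of the gene, with TGACG or its reverse complement CGTCA in capitals. The whole element contains TGACG on both strands, so its matches overlap.
Fos (chr12:85473640-85473889, plus strand): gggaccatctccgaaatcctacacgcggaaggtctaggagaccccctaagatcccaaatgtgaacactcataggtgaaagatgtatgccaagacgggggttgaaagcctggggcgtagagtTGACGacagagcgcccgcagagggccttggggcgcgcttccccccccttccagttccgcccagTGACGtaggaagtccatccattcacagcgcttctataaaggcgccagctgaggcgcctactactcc
Nr4a1 (chr15:101266596-101266845, plus strand): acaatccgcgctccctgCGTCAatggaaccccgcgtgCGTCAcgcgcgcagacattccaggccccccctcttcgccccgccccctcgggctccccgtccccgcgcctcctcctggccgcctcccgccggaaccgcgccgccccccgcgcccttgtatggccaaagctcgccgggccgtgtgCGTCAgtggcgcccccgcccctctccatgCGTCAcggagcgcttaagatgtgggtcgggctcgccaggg
Dusp1 (chr17:26508473-26508722, minus strand): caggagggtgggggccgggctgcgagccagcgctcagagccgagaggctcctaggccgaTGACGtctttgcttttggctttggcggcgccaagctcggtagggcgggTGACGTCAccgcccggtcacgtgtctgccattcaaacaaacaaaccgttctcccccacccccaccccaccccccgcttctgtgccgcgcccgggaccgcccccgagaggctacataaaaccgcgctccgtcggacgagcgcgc
Fos had 2 matches of TGACG, Nr4a1 had 4, and Dusp1 had 3, 1 alone and 2 (on opposite strands) within the single TGACGTCA of the 3 windows. No CArG box was found in these windows, and sequence farther upstream was not searched. Of the 15 immediate early genes 11 had an entry, of which 8 (72.7%) held TGACG, 2 TGACGTCA and 1 a CArG box, against 19.8, 1.77 and 1.62% of the 27025 genes with a promoter in the table. None of the 11 held TAATCC. These are descriptions of the letters in the window.

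Genes with the lowest adjusted p in the comparison, 0.108, included 3 that are in none of the gene lists. Frat2, a binding partner of GSK3 in Wnt signalling, was counted at 23.6, 19.3 and 16.2 CPM in P32 mice 4, 5 and 6 and 9.73, 8.07 and 9.64 CPM in P38 mice 10, 11 and 12. All P38 values were under the lowest P32 value. Its log2 fold change was -1.11 ± 0.16 (SE) with an adjusted p of 0.108. With the offsets it was -0.92 with an adjusted p of 0.0307 in edgeR. With the offsets and sex as a covariate edgeR called 0 genes (smallest adjusted p 0.0799, 2068 genes at the unadjusted limit), and it also called 0 with the offsets and without mouse 5, 10 or 11 (1609, 1422 and 1303 at the unadjusted limit). The other two, Antxr2 and 1700016P03Rik, were chosen after their values were seen. Antxr2, an anthrax toxin receptor that binds collagen, stood at 20.6, 17.8 and 17.9 CPM at P32 and 32.4, 36.4 and 36.7 CPM at P38 (0.90 on the log2 scale), and 1700016P03Rik at 2.46, 2.40 and 2.07 CPM at P32 and 0.509, 0.539 and 0.407 CPM at P38 (-2.23).

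Among core clock genes 1 was higher and 2 lower of 18 tested, 2 had all P38 values above P32 and 6 all below. With the offsets 0 were higher and 1 lower. The higher members numbered 0, 1, 2, 1, 1 and 1 and the lower ones 1, 2, 2, 2, 2 and 2 without each of the 6 mice in turn. Dbp, an output gene of the clock, stood at 233, 158 and 140.3 CPM at P32 and 109.7, 108 and 121 CPM at P38. Mouse 4 was the highest of the P32 mice, the ages did not overlap, and the log2 fold change was -0.65 ± 0.16 (SE), -0.48 with the offsets and -0.40 without mouse 4. Ciart, a repressor of the clock, had -0.67 on the log2 scale. Clock, whose product drives the positive limb, was higher by 0.53, and by 0.20 with the offsets.

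Groups of genes with very long or very short transcripts followed the length gradient. The first was a list of chromatin and long regulatory genes, with a median exonic length of 14270 bases. Length was part of its definition, so its place on the gradient is not a separate result. Of its 23 members tested, 15 were higher and 0 lower at the unadjusted limit. Their median log2 fold change was 0.64, and 0.29 with the offsets, with which 3 were at the limit. P32 mouse 4 had the lowest value in all 23. Without it the median was 0.40 and 6 were higher, where 2.57% of all genes were. Without mouse 6 edgeR called 16 at its adjusted p. Ncor1, a nuclear receptor corepressor, stood at 87.9, 147 and 176 CPM at P32 and 233, 267 and 232 CPM at P38, and its log2 fold change went from 0.84 to 0.54 with the offsets. Huwe1, a ubiquitin ligase, went from 0.78 to 0.38, and Ash1l, a histone methyltransferase, from 0.89 to 0.58.

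At the other end lay the ribosomal proteins. Of 83 cytosolic ribosomal protein genes (median exonic length 1770 bases) 0 were higher and 17 lower, with a median of -0.40. Mouse 4 had the highest value in 70 of the 83, and without it the median was -0.06. The lower members numbered 5, 22, 29, 18, 10 and 14 without each of the 6 mice in turn, where 2.94, 6.71, 10.2, 5.26, 4.72 and 6.26% of all genes were lower. With the offsets the median was -0.23, with 1 higher and 9 lower. Rplp0, of the ribosomal stalk, had a log2 fold change of -0.94, and -0.73 with the offsets. Rpl5, which binds 5S RNA, stood at 42.9, 34.7 and 32.5 CPM at P32 and 26.01, 23.01 and 24.1 CPM at P38 and had -0.59 in both. Genes with near-identical pseudogenes are undercounted where reads map to more than 1 place, so ribosomal values are uncertain. The 77 mitochondrial ribosomal proteins (median -0.26, 4 lower) and the 81 nuclear subunits of oxidative phosphorylation (median -0.31, 4 lower) had medians of 0.00 and 0.00 without mouse 4. The lower members of the former numbered 0, 15, 20, 10, 0 and 0 and those of the latter 0, 21, 33, 8, 0 and 1 without each of the 6 mice in turn, and with the offsets 6 and 0. Of the 37 proteasome subunits 1 was lower, 0 with the offsets and 0, 3, 6, 2, 0 and 0 without each of the 6 mice in turn. Their median was -0.24, -0.14 with the offsets and -0.03 without mouse 4.

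Mitochondrially encoded mRNAs had a positive median where the nuclear subunits of the same complexes had a negative one. Of 13 such genes 6 were at or near 0 counts in all 6 libraries and were not tested. Of the 7 tested, 3 were higher and 0 lower, with a median of 0.45. With the offsets 6 were higher and the median was 0.57. mt-Nd5, a subunit of complex I, had 1330, 1987 and 2589 CPM at P32 and 4894, 3083 and 3273 CPM at P38, without overlap, and a log2 fold change of 0.93 ± 0.27 (SE), and 1.04 with the offsets. mt-Co1, a subunit of complex IV, was higher by 0.68. Mouse 10 was highest in 6 of the 7, and without it the median was 0.22. Of the 7, 1, 2, 6, 1, 6 and 4 were higher without each of the 6 mice in turn.

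**Figure D5:**
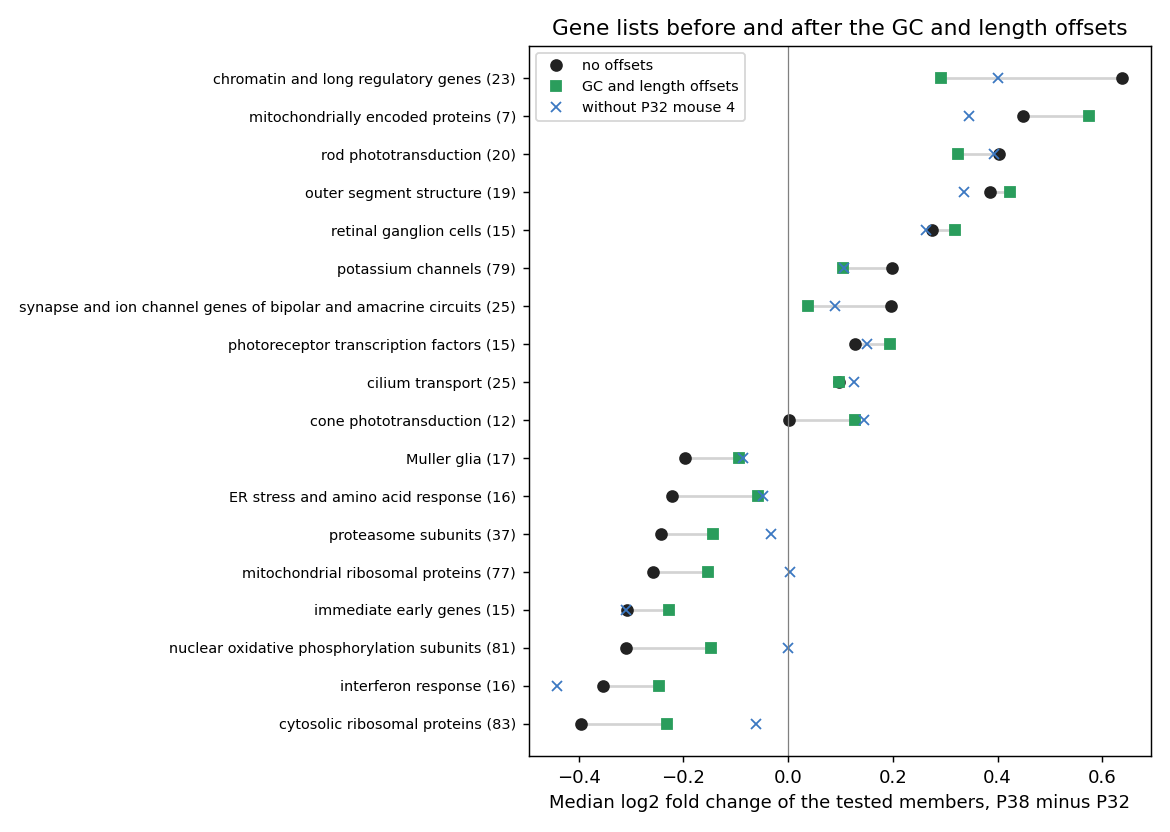
Median log2 fold change of P38 over P32 (x axis) of 18 gene groups (y axis) without offsets (black), with GC and length offsets (green) and without P32 mouse 4 (blue crosses). The chromatin genes move from 0.64 to 0.29 and the ribosomal proteins from -0.40 to -0.23 with the offsets, while rod phototransduction goes from 0.40 to 0.32 and the immediate early genes from -0.31 to -0.23.

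Of 17 bipolar cell genes 1 was higher and 1 lower, and with the offsets 0 were either. Grm6, the glutamate receptor of ON bipolar cells, had -0.22. Bhlhe23, a factor of rod bipolar cells, stood at 33.7, 29.6 and 25.7 CPM at P32 and 17.6, 22.3 and 20.4 CPM at P38, without overlap, and had -0.56. Trpm1, the channel of ON bipolar cells, was higher by 0.63, and by 0.30 with the offsets, and its ages overlapped. None of the 17 amacrine genes reached both the unadjusted p and the fold, at most 1 did in either direction when 1 mouse was left out, and Tfap2a, an amacrine transcription factor, had -0.34.

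In horizontal cells 2 of 9 genes were higher and 0 lower. Onecut1, a transcription factor of these cells, was at 0.120, 0.362 and 0.690 CPM at P32 and 1.19, 1.59 and 1.36 CPM at P38, in mouse 4 close to the level of 3 counts. Gja10, their connexin, had 0.570, 1.22 and 1.70 CPM at P32 and 2.01, 2.65 and 2.17 CPM at P38 and a log2 fold change of 0.96 ± 0.33 (SE). The group median was 0.18, 0.03 with the offsets, 0.01 without mouse 4 and 0.33 without mouse 10, and the higher members numbered 2, 2, 4, 3, 2 and 3 without each of the 6 mice in turn.

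Retinal ganglion cell genes had 13 of 15 positive fold changes. Of 15 tested, 5 were higher (5.68% of all genes were) and 0 lower, 9 had P38 above P32 without overlap (13.3% of all genes did), and the median was 0.28, and 0.32 with the offsets, with which 4 were higher. Opn4, melanopsin, the pigment of intrinsically photosensitive ganglion cells, was counted at 4.98, 4.88 and 4.83 CPM at P32 and 8.15, 7.76 and 7.64 CPM at P38. The P32 mice were within 1 CPM of each other, as were the P38 mice, and the log2 fold change was 0.68 ± 0.16 (SE) (adjusted p 0.114 in edgeR), and 0.82 with the offsets. Nefl, the light neurofilament, stood at 441, 406 and 499 CPM at P32 and 755, 568 and 602 CPM at P38, with 0.52. Scn1a, a sodium channel, and Slc17a6, the vesicular glutamate transporter of ganglion cells, had 0.76 and 0.51, and 0.50 and 0.43 with the offsets. Pou4f1, the transcription factor that defines most ganglion cells, had 0.28 with overlapping ages. Mouse 10 was highest in 11 of the 15, and the higher members numbered 3, 2, 6, 2, 4 and 6 without each of the 6 mice in turn.

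Among 79 potassium channels 11 were higher and 0 lower, and with the offsets 8 and 1. Of the 79, 7, 10, 17, 17, 7 and 10 were higher without each of the 6 mice in turn. Kcnh5, a channel of the ether-a-go-go family, stood at 2.31, 4.60 and 9.83 CPM at P32 and 15.8, 22.99 and 18.1 CPM at P38, with 1.76 ± 0.42 (SE). Of 25 synapse and channel genes of bipolar and amacrine circuits 5 were higher, 1 with the offsets and 1, 4, 9, 7, 2 and 4 without each of the 6 mice in turn. Ank2, an adaptor of channels at the membrane, went from 0.70 to 0.25 with the offsets, whereas Glra1, a glycine receptor subunit, went from 1.57 to 1.67.

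Among 17 Müller glia genes 0 were higher and 2 lower (0, 2, 5, 3, 2 and 1 lower without each of the 6 mice in turn), with a median log2 fold change of -0.20, and -0.09 with the offsets. The median ran from -0.31 without mouse 6 to -0.09 without mouse 4. Sox2 was at 31.9, 23.2 and 20.5 CPM at P32 and 17.9, 16.9 and 13.99 CPM at P38 and Sox9 at 20.04, 18.2 and 15.5 CPM at P32 and 12.96, 13.3 and 11.1 CPM at P38. These transcription factors of glia had log2 fold changes of -0.63 and -0.52 without overlap. Glul, glutamine synthetase, had -0.09 and Aqp4, the water channel of the end feet, 0.44. Gfap, an intermediate filament that glia make after injury, stood at 16.4, 19.1 and 15.1 CPM at P32 and 49.1, 23.4 and 29.4 CPM at P38. Each P38 value was above the P32 values and mouse 10 was highest, with a log2 fold change of 1.01 ± 0.37 (SE) and an adjusted p of 0.152 in edgeR. It was 0.64 without mouse 10. The P30 mice had 20.1 to 45.1 CPM, which overlaps the P38 range and lies above the P32 values. The injury group as a whole had 2 higher and 2 lower of 19. The higher members numbered 3, 4, 1, 1, 2 and 3 and the lower ones 1, 3, 4, 2, 2 and 0 without each of the 6 mice in turn. Osmr, the oncostatin M receptor, was higher by 0.63, and by 0.30 with the offsets, and Timp1, a protease inhibitor, had -1.38 with overlap, and -0.60 without mouse 4.

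Of 16 microglia and complement genes 2 were higher, Cx3cr1 and Csf1r, both receptors of microglia, and 0, 2, 2, 0, 2 and 2 were higher without each of the 6 mice in turn. The group median was -0.18, 0.04 with the offsets and 0.03 without mouse 4, 9 of the 16 were negative, and 3 had P38 above and 2 P38 below P32. Cx3cr1 stood at 3.51, 5.01 and 5.59 CPM at P32 and 7.50, 6.22 and 6.62 CPM at P38 (0.52 on the log2 scale) and Csf1r at 9.75, 12.5 and 13.4 CPM at P32 and 18.7, 15.6 and 16.2 CPM at P38 (0.50). Tyrobp, their signalling adaptor, had -0.58 with an unadjusted p of 0.0536, and -0.36 with the offsets. Interferon response genes had a median of -0.35, with 0 higher and 2 lower of 16. It depended on single mice, from -0.04 without mouse 5 and -0.06 without mouse 10 to -1.03 without mouse 11, and the lower members numbered 4, 0, 1, 1, 5 and 1 without each of the 6 mice in turn. Ifi27 stood at 16.8, 27.3 and 13.6 CPM at P32 and 9.85, 10.9 and 6.75 CPM at P38 (-1.07) and Irf9 had -0.52. In 14 genes of antigen presentation 2 were lower, among them Tap2, the peptide transporter, with 11.2, 10.9 and 9.88 CPM at P32 and 5.65, 8.19 and 7.13 CPM at P38 and a log2 fold change of -0.61. The lower members of this group numbered 2, 1, 3, 0, 1 and 2 without each of the 6 mice in turn, and 2 were higher without mouse 4.

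Metabolic and stress groups held few members at the limit. In aerobic glycolysis 1 of 19 was higher, Hk1, hexokinase, with 519.7, 730.1 and 769 CPM at P32 and 1090, 911 and 930.4 CPM at P38 and 0.54, and Pkm, pyruvate kinase, had 0.32. In cholesterol synthesis 1 of 20 was lower, Fdps, farnesyl diphosphate synthase (-0.50). In ER stress 0 of 16 reached both the unadjusted p and the fold. Herpud1, which acts in the degradation of ER proteins, had -0.37, and -0.22 with the offsets. Of 20 heat shock genes 1 was higher and 1 lower, Hspa4l (0.51, and 0.21 with the offsets) and Hspb1 (-2.50), a small chaperone that stood at 10.5, 12.2 and 0.863 CPM at P32 and 1.65, 0.868 and 1.63 CPM at P38. Of 25 genes of cilium transport 3 were higher, Bbs1, Ift122 and Ift80, with 0.59, 0.51 and 0.55 (0.43, 0.26 and 0.24 with the offsets), and 0 with the offsets. The higher members of this group numbered 0, 3, 6, 2, 4 and 2 without each of the 6 mice in turn. In the glycolysis, cholesterol and heat shock groups, leaving out 1 mouse moved each count by at most 2 members, as it did in the cone and bipolar groups.

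Of 18 RPE genes 2 were higher, Trpm3, a cation channel also made by other retinal cells, and Stra6, the receptor for retinol-binding protein. With the offsets 1 was higher, and 1, 2, 1, 1, 1 and 2 were without each of the 6 mice in turn, while the median of 0.26 ran from -0.02 without mouse 10 to 0.52 without mouse 12. Trpm3 had 0.73, and 0.26 with the offsets, and Stra6 had 4.17, 7.16 and 4.34 CPM at P32 and 12.98, 10.7 and 5.91 CPM at P38. Rpe65, the isomerase of the visual cycle, stood at 10.4, 20.6 and 10.1 CPM at P32 and 25.3, 16.02 and 11.2 CPM at P38, with overlap, and the sum over the group lay between 665 and 863 CPM at P32 and between 736 and 983 CPM at P38. Of 42 collagens 0 were higher and 2 lower, 6 lower with the offsets. The higher members numbered 0, 1, 3, 2, 0 and 0 and the lower ones 3, 1, 2, 0, 4 and 4 without each of the 6 mice in turn. Col9a1, which is made in the ciliary body, stood at 84.96, 93.9 and 67.01 CPM at P32 and 48.6, 61.6 and 58.1 CPM at P38 (-0.55). Among 65 splicing factors 1 was higher, Prpf8 (0.68), and 0 lower, while 3 had P38 above and 16 P38 below P32 without overlap. With the offsets 2 were lower, and without each of the 6 mice in turn 1, 2, 3, 1, 1 and 2 were higher and 0, 5, 6, 3, 0 and 1 lower. Among 360 Zfp genes 22 were higher (6.11%, near the 5.68% of all genes) and 8 lower. Of these genes 2.22, 5.83, 17.5, 7.78, 3.06 and 5.83% were higher without each of the 6 mice in turn, where 2.57, 5.93, 11, 6.22, 4.05 and 5.64% of all genes were. Zfp566 stood at 12.9, 8.79 and 8.97 CPM at P32 and 4.78, 4.60 and 5.06 CPM at P38, with a log2 fold change of -1.09 ± 0.19 (SE).

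Markers of other tissues moved with single libraries. The 18 lens genes had a median of -2.05 with 2 lower at the unadjusted limit (11 without mouse 6, 0 without any one of the other mice), and 0 of them separated the ages. Cryaa, alpha crystallin, stood at 22830, 17450 and 384 CPM at P32 and 8446, 3389 and 3178 CPM at P38. Mouse 6 was far below all others, and the median ran from -2.62 to -1.37 as 1 mouse at a time was left out. Corneal genes summed to 65.3, 61.2 and 14.3 CPM at P32 and 44.2, 36.1 and 18.7 CPM at P38. The 11 skeletal muscle genes summed to 21.8 to 36.4 CPM in 5 mice and 113.7 CPM in P38 mouse 12. Blood genes had a median of -1.24, and 0.07 without mouse 4. Of the vessel markers, Esam, an adhesion molecule of endothelium, had 23.5, 24.2 and 19.5 CPM at P32 and 10.5, 16.1 and 14.4 CPM at P38 (-0.72) and Kdr, a VEGF receptor, 0.36, and 0.12 with the offsets. The part of the tissue taken with each retina in the other differences was not tested.

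The largest single differences in protein-coding genes with separate ages were mostly in genes of low count. Among those higher, Hipk2, a nuclear kinase, stood at 9.63, 18.4 and 29.6 CPM at P32 and 59.5, 82.5 and 60.3 CPM at P38, with a log2 fold change of 1.81 ± 0.36 (SE), and 1.64 with the offsets. Pde10a, a cyclic nucleotide phosphodiesterase, stood at 11.7, 18.9 and 22.4 CPM at P32 and 64.3, 95.3 and 27.4 CPM at P38 (1.82), and Slc9a7, a sodium/proton exchanger, at 3.09, 8.04 and 14.6 CPM at P32 and 25.3, 28.9 and 26.5 CPM at P38 (1.64). In Hipk2 and Slc9a7 mouse 4 was lowest. Dok6, Dcc and Bnc2, with log2 fold changes of 2.03, 1.78 and 1.95, were each under 1 CPM in mouse 4, and Dok6 had 3.43 without mouse 6. Tnnt3, a skeletal muscle troponin, stood at 0.0600, 0.103 and 0.123 CPM at P32 and 0.218, 2.72 and 12.5 CPM at P38. Of the mice compared, it was high only in mice 11 and 12, and it reached 10.8 CPM among the P30 mice and 18.96 CPM among the P34 mice.

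Among those lower, Adra2b, an alpha-2 adrenergic receptor, stood at 1.62, 1.45 and 1.58 CPM at P32 and 0.534, 0.657 and 0.441 CPM at P38, with a log2 fold change of -1.49 ± 0.26 (SE). Magohb, of the exon junction complex, stood at 20.9, 10.7 and 10.6 CPM at P32 and 6.67, 4.13 and 4.96 CPM at P38 (-1.41). Vmn1r14, a vomeronasal receptor gene, stood at 4.14, 9.72 and 0.222 CPM at P32 and 0, 0.0469 and 0 CPM at P38, so that it was counted in P32 mice 4 and 5 and at or near 0 in the P38 mice. The processed pseudogene Gm13394, chosen after its values were seen, stood at 125, 135 and 136 CPM at P32 and 0.728, 0.493 and 0.475 CPM at P38. It had an adjusted p of 0.114 in edgeR, and was the single gene called when the 6 mice or the 9 knockout mice were fitted alone. Wdfy1, also chosen after its values were seen, was the single gene called without P38 mouse 12, which at 94.2 CPM lay above all P32 mice while mice 10 and 11 had 23.3 and 27.5 CPM.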

How the data were processed

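RNA of whole retinas was sequenced by the authors as 50-base single reads from stranded poly(A) libraries. Per the submitters' processing notes and the study's methods, reads were mapped to mm10 with STAR 2.5.3a and counted with HTSeq 0.6.1p1 in union mode over Ensembl release 93. The strand setting of the counter is not given in the sources used here. The counts per gene deposited by the authors are raw whole numbers, in 1 file for each mouse. Rows that name no gene were dropped from library sizes and tests. They held 7.53 to 12.3% (no gene) and 23.7 to 32.15% (no unique position) of the reads given to the counter in the 6 libraries.

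CPM (TMM scaling) and tests were made with edgeR 4.0.16 in R 4.3.3. All 12 mice entered 1 quasi-likelihood fit of the 4 conditions, and P38 was contrasted with P32. The P30 and P34 mice thus entered the estimate of spread, the filter, the scaling and the offsets, but not the contrast. The function filterByExpr of edgeR left 18628 of 54146 genes. P-values were adjusted by Benjamini-Hochberg, and a call needed an adjusted p of 0.05 and a log2 fold change of 0.5. The standard error is the log2 fold change divided by the square root of F. Gene names, exonic GC and exonic length came from GENCODE M21 (GRCm38) and covered 18614 genes tested. For the offsets, the deviation of each library from the mean of the 12 mice was fitted per library by a natural spline (4 degrees of freedom) on GC and log2 length, and the fit entered edgeR as an offset. The procedure was tested on simulated counts. Of 100 genes changed by 2 on the log2 scale 98 were called, and of 100 changed by 1, 64 to 70 were. From 6 to 12 unchanged genes were called. With a length trend put into 1 simulated P32 library, the longest minus the shortest quintile was 0.283 without offsets and 0.0271 with them. In the data these quintiles had medians of 0.23 and -0.26, a stronger trend, so the simulation does not show how well the offsets do here. Differences between libraries were compared by exact permutation tests. Intervals for counting error were not used, and the floor of 3 counts covers counting error only.

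The 42 gene lists and the alternatives were chosen with earlier results of these data known. Genes named are Otx2, the 10 largest differences in each direction among protein-coding genes with separate ages in each fit, every gene past the threshold, the first 2 members of each list and its 4 lowest p-values, the most counted genes of the extreme length and GC quintiles, and those said to be chosen after their values were seen. Some genes that this rule names are not reported here. The labels do not say whether the mice came from separate litters. No pair of libraries of an age held the same counts: the chi-square per degree of freedom was 25.7 to 254. Alternatives were DESeq2 1.42.0, other filters, size factors, a robust fit, fits of fewer mice, leaving out each mouse, GC or length offsets alone and sex as a covariate.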

Additional observations from a re-analysis of the deposited data

Results flagged for a closer look

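Reads without a unique position lay outside the comparison and were above the P30 control mice in 2 of the 6 libraries compared. They came to 32.15% of the reads given to the counter in P32 mouse 4 and 28.53% in P38 mouse 10, against at most 27.24% in the P30 mice. No explanation was tested.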

How the results depend on the processing

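No paired analysis was possible because the P32 and P38 mice share no replicate numbers. Genes called by edgeR at the adjusted threshold numbered 0 under TMM or DESeq2's size factors, a robust fit, protein-coding genes alone, a filter of 1 CPM in 3 mice, the adjusted p alone and sex as a covariate, with or without both offsets. They numbered 201 without the filter on low counts, 929 with DESeq2, 605 with DESeq2 and GC and length factors, and 1 with the 6 mice alone, the 9 knockout mice alone, GC offsets or both offsets. At an unadjusted p there were 2220. Leaving out 1 mouse gave 0 to 1968 calls, and 0 to 540 with both offsets. Why DESeq2 and edgeR differ was not tested. Of 1358 members of the gene lists, 82 were called by DESeq2 (60 higher) and 173 without P32 mouse 6 (125 higher). Of the genes named in the text, 63 were called by DESeq2, 1 with the 6 mice alone or both offsets, and 0 to 64 when 1 mouse was left out. The share of variance given by GC and length was 18.4% in protein-coding genes, 29.6% at 10 CPM or more, and 3.33 to 10.6% when 1 mouse was left out.

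Among the genes named, 9 had a log2 fold change that crossed 0 when 1 mouse was left out. The range was -0.005115 to 0.2234 for Crx, -0.4301 to 0.2253 for Fosb, -0.3469 to 0.004709 for Grm6, -0.0829 to 0.1169 for Jun, -0.1542 to 0.5307 for Meg3 (-0.2523 with both offsets), -0.05001 to 0.2628 for Nrl, -0.02137 to 0.1193 for Otx2, -0.02523 to 0.3359 for Rom1 and -0.004677 to 0.7743 for Rpe65. A difference that missed the threshold is not shown to be absent. Genes under about 1 CPM rest on few counts.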

Other observations

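Nuclear long noncoding RNAs had 1 higher and 1 lower of 16, median 0.12, and -0.30 with the offsets, with which 3 were lower. The median was -0.08, 0.14, 0.23, 0.29, -0.07 and -0.24, and 0, 2, 2, 1, 1 and 1 were higher and 0, 1, 1, 1, 1 and 2 lower without mice 4, 5, 6, 10, 11 and 12 in turn. P38 mouse 10 had the lowest value in 7 of them. Meg3, an imprinted noncoding RNA chosen after its values were seen, stood at 634, 939 and 988 CPM at P32 and 335, 1199 and 1266 CPM at P38, with mouse 10 below all others. Snhg1, a host gene of small nucleolar RNAs, stood at 33.5, 22.4 and 18.02 CPM at P32 and 16.9, 14.1 and 15.1 CPM at P38, a log2 fold change of -0.68 without overlap and an adjusted p of 0.116 in edgeR, and -0.39 without mouse 4.

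The replication-dependent histones had 0 higher and 0 lower of 22, median 0.06, and 0.27 with the offsets. Their mRNAs lack a poly(A) tail, and the libraries were made on poly(A). Their median was 0.18, 0.02, -0.10, -0.07, 0.06 and 0.12 without each of the 6 mice in turn, and 3 were higher without mouse 4. Small leucine-rich proteoglycans had 0 higher and 0 lower of 10, median -0.04, and 0.03 with the offsets, and smooth muscle and pericyte genes 0 higher and 0 lower of 13, median 0.14, and 0.14 with the offsets. When 1 mouse was left out at most 1 member of either group was at the limit in any direction, and the medians ran from -0.33 to 0.27 and from -0.03 to 0.16. Markers of the ciliary body and iris had 0 higher and 2 lower of 14, median 0.08, and 0.07 with the offsets, with a median of 0.17, 0.30, -0.11, -0.02, -0.0028 and 0.33 and 2, 0, 1, 0, 1 and 2 lower without each of the 6 mice in turn. Endothelial markers had 0 higher and 2 lower of 15, median -0.18, and -0.26 with the offsets, and 1, 1, 3, 1, 1 and 1 were lower without each of the 6 mice in turn.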
